A study of Mus musculus with 22 samples.

Results

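The kynurenine pathway enzymes described here were 10 of the 46078 genes in the deposited count table, taken by exact match of the gene symbol: Ido1, Ido2, Tdo2, Afmid, Kmo, Kynu, Haao, Qprt, Acmsd and Il4i1. Their RNA was measured by poly(A) RNA sequencing of distal colon from 22 mice, 1 library per mouse. Controls were 8 wild-type C57BL/6 mice aged 14 weeks (4 males, 4 females). The Winnie group was 7 mice aged 14 weeks (3 males, 4 females) labelled as inflamed, and the Winnie-Prolapse group was 7 mice aged 18 weeks (4 males, 3 females) labelled as severely inflamed. Winnie mice carry a missense mutation in the mucin gene Muc2 in every cell and develop colitis without any added agent, and the labels name no treatment in any group. The study's methods name fewer Winnie mice than the labels do, without saying which was left out, and all labelled libraries were used here. Age went with prolapse and cannot be told apart from it. C57BL/6 libraries served as the control of both Winnie groups, so the comparisons against them share control samples.

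Most tryptophan that is broken down enters the kynurenine pathway, whose first and rate-limiting step opens the indole ring to give N-formylkynurenine. That step is carried out by indoleamine 2,3-dioxygenase 1 (Ido1), the paralogous Ido2 or tryptophan 2,3-dioxygenase (Tdo2). Ido1 is induced by interferon-gamma in myeloid, endothelial and epithelial cells, and Tdo2 is mainly a liver enzyme. Arylformamidase (Afmid) then yields kynurenine, kynurenine monooxygenase (Kmo) and kynureninase (Kynu) carry it to 3-hydroxyanthranilate, 3-hydroxyanthranilate dioxygenase (Haao) leads to quinolinate, and quinolinate phosphoribosyltransferase (Qprt) passes this on to NAD. Acmsd diverts the intermediate before quinolinate towards glutarate. Il4i1 is a secreted amino acid oxidase of antigen-presenting cells that also uses tryptophan, outside the kynurenine route.

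Total counts ran from 24.8 to 36.3 M per library, and 3 counts, the upper limit behind a zero, equalled 0.0825 to 0.121 counts per 1000000 counts of the library (CPM). All 7 colonocyte markers listed were detected in every group, with summed levels of 7202 to 11760 CPM in C57BL/6, 6328 to 11239 in Winnie and 4458 to 8654 in Winnie-Prolapse. A few libraries stood apart. In Winnie replicate 5 the summed level of 11 interferon-gamma response genes was 242 CPM, below the C57BL/6 range of 250 to 296 CPM. In Winnie-Prolapse replicate 6 milk protein genes summed to 180157 CPM, which lowers the CPM of every other gene there. Squamous epithelium markers summed to 1.48 to 2023 CPM in the Winnie-Prolapse libraries and to 1.81 to 2.83 CPM in C57BL/6. In Winnie they summed to 1.38 to 3.05 CPM, apart from replicate 2 at 36.9 CPM. Their part in any result below was not tested. C57BL/6 replicates 5 and 7 were the highest and the lowest of that group for the B cell marker Ms4a1, at 36.8 and 0.906 CPM.

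The members lie on 7 chromosomes of the mouse build GRCm38 (GENCODE M21 positions). Ido1 (ENSMUSG00000031551, chromosome 8, 24584136 to 24597009) and Ido2 (ENSMUSG00000031549, chromosome 8, 24531892 to 24576333) are neighbours on the minus strand, separated by 7802 bases. Of the members 6 share no base of their span with another annotated gene. Afmid overlaps Gm20708 on its own strand and Tk1 on the other, and Il4i1 overlaps Nup62 on its own strand and Atf5 and Tbc1d17 on the other. Kmo overlaps Fh1 and Acmsd overlaps 2900009J06Rik, both on the opposite strand. The libraries were stranded but the strand setting of the counting was not given in the sources used here, so reads of these 4 members and of their overlapping partners may not be fully separated.

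Per kilobase of exon, Afmid and Ido1 led the pathway in C57BL/6 colon. Afmid stood at 1.55 ± 0.23 CPM per kb (SD, n = 8), Ido1 at 1.30 ± 0.73 and Il4i1 at 1.04 ± 0.63, and these neighbours in the order did not differ beyond their spread. Haao (0.384 ± 0.325), Kmo (0.339 ± 0.301) and Kynu (0.164 ± 0.160) followed, also within one another's spread. Qprt (0.111 ± 0.057) came next, and Tdo2, Ido2 and Acmsd had means of 0.051, 0.023 and 0.0031 CPM per kb. The mean of Tdo2 rested on replicate 7 (0.196 CPM with it and 0.0742 without), so no order between Tdo2 and Ido2 is given. In Winnie-Prolapse the order began with Ido1 at 207 ± 191 CPM per kb (SD, n = 7), whose lowest library (68.4) was above the highest library of every other member. Il4i1 (1.01 ± 0.56), Afmid (0.857 ± 0.172), Kmo (0.551 ± 0.311) and Ido2 (0.427 ± 0.382) followed, each within the spread of the next. With the longest transcript as length in place of all exons, Il4i1 (1.86) lay above Ido1 (1.43) in C57BL/6.

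Ido1 differed most of the members tested in the comparisons of both Winnie groups with C57BL/6. It stood at 0.708 to 4.52 CPM in the 8 C57BL/6 libraries, with a median of 2.23 CPM. In the 7 Winnie libraries the lowest value was 0.558, the median 42.8 and the highest 302 CPM. In the 7 Winnie-Prolapse libraries they were 125, 258 and 1122 CPM. The lowest Winnie-Prolapse library was 27.6 times as high as the highest C57BL/6 library, and 6 of 7 Winnie libraries were also above all C57BL/6 libraries. Winnie replicate 5, with 17 Ido1 counts, was below all C57BL/6 libraries, and Winnie replicate 4, at 6.08 CPM, was the next lowest.

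Ido2, the neighbouring and less active paralog, was near the limit of detection in C57BL/6. C57BL/6 libraries held 0 to 4 Ido2 counts each, 19 in all, and Winnie libraries held 0 to 24 counts, with a median of 0.134 CPM. Of the Winnie libraries 3 of 7 were above all C57BL/6 libraries (replicates 1 to 3, 0.347 to 0.66 CPM). These were the males of the Winnie group, and its 4 females had 0 to 0.134 CPM. Winnie-Prolapse libraries held 12 to 119 counts, from 0.363 to 3.89 CPM with a median of 0.773. All 7 prolapse libraries were above all C57BL/6 libraries, and 4 of 7 were above all Winnie libraries. Replicates 4 and 5, the prolapse libraries with the most Ido1, also had the most Ido2 (3.07 and 3.89 CPM).

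**Figure D1:**
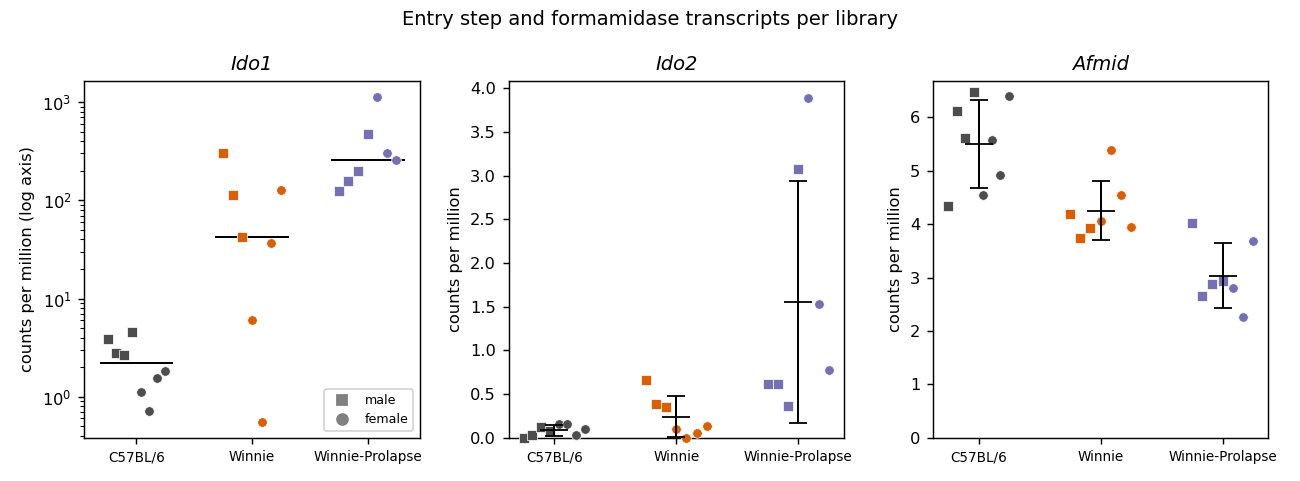
Level in CPM of Ido1 (log axis), Ido2 and Afmid (linear axes) in each library of the 3 groups, squares for males and circles for females; the line is the group median for Ido1, and the bars are mean ± SD for Ido2 and Afmid. The 7 Winnie-Prolapse libraries lie above all C57BL/6 libraries for Ido1 and Ido2 and below all of them for Afmid, and 1 Winnie library lies below the C57BL/6 range for Ido1.

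Tdo2 gave almost no reads. It had 0 to 5 counts in 21 of the 22 libraries, and 29 counts (1.05 CPM) in C57BL/6 replicate 7. Of 4 hepatocyte markers, that library had the lowest Ttr (2.57 CPM) and Alb (0.217 CPM) of its group and the highest Apoa1 (1.52 CPM, against a group median of 0.018), and Serpina1a was at most 0.039 CPM in the group. Their part in the Tdo2 reads was not tested. Tdo2 passed the low-count filter in no comparison and was not tested.

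Ido1 therefore made up most reads of the ring-opening step in every library. Its share of the reads of Ido1, Ido2 and Tdo2 was 99.3% to 99.8% in Winnie-Prolapse and 81.0% to 99.9% in Winnie. In C57BL/6 the share was 58.9% to 98.2%, and the lowest value, in replicate 7, rested on 73 reads (95% Wilson interval 47.4% to 69.5%). Such intervals reflect only the error of counting, because reads carry no molecular identifiers and need not stand for separate molecules. In the prolapse libraries there were 155 to 552 Ido1 reads for each Ido2 read.

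Winnie and C57BL/6 mice were compared first, at 1 age, to ask which members change with colitis. Of the 10 members 7 passed the low-count filter, and 0 of these 7 were called at the limits of the study, a 1.5-fold difference or more with an adjusted p under 0.001. Of all genes tested, 0.0925% were called (16 of 17289, with 6901 at an unadjusted p under 0.05), and 2 members, Ido1 and Afmid, were at an unadjusted p under 0.05. The edgeR quasi-likelihood fit gave Ido1 a log2 fold change of 5.34 with an SE of 0.90 (adjusted p = 0.00213). It was the 1 member past the looser limit of 0.05 with at least 1.5-fold, where 15.9% of all genes were called and 7.42% were higher. Without Winnie replicate 1 the value was 4.61, the lowest over single libraries left out. Without Winnie replicate 5 it was 5.56 ± 0.69, the highest, and Ido1 was called (adjusted p = 0.00013, range 0.00013 to 0.00572 over single libraries left out). DESeq2 (adjusted p = 7.33e-09) and the fit of all 3 groups together (0.000465) called it as well. No member had groups without overlap, a state found for 1.64% of genes tested.

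No other member tested passed either limit in Winnie colon. Afmid was at 4.26 ± 0.56 CPM (SD, n = 7) against 5.50 ± 0.82 (SD, n = 8), which edgeR fitted as -0.28 ± 0.12 on the log2 scale (SE; adjusted p = 0.0989). Kynu (0.59 ± 0.49) and Kmo (0.45 ± 0.44) had adjusted p of 0.385 and 0.472. Without C57BL/6 replicate 5 these were 1.01 ± 0.45 (0.111) and 0.92 ± 0.37 (0.0811), the highest over single libraries left out. The lowest were 0.43 for Kynu, without Winnie replicate 1, and 0.27 for Kmo, without C57BL/6 replicate 7. The adjusted p reached 0.589 for Kynu and 0.608 for Kmo over these fits. The fold changes of Qprt (0.15 ± 0.31), Il4i1 (0.06 ± 0.32) and Haao (-0.12 ± 0.46) had adjusted p of at least 0.74. These values leave changes open in either direction, from -1.03 to 0.78 on the log2 scale (95% interval) for Haao.

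Winnie-Prolapse libraries were then set against those of C57BL/6 mice, for the most severe disease. Of the 10 members, 7 passed the filter and 3 of these 7 were called, 2 higher and 1 lower. Among all genes tested 18.3% were called (3186 of 17397), 9.84% higher and 8.47% lower. Ido1 rose by 7.38 ± 0.57 on the log2 scale (SE; edgeR quasi-likelihood test, adjusted p = 1.86e-07). Ido2 rose by 4.19 ± 0.60 (adjusted p = 4.55e-05), a size that depends on how the few C57BL/6 counts are treated. Ido2 passed the filter only in the comparisons that hold the prolapse group, in which it is high. On leaving out each library in turn Ido1 was called every time, with log2 fold changes of 6.85 (without Winnie-Prolapse replicate 5) to 7.57. The range for Ido2 was 3.80 to 4.37, which its choice by the filter leaves without weight as a sign of stability.

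Afmid, the formamidase that follows the ring-opening step, fell by 0.77 ± 0.14 on the log2 scale (SE; edgeR, adjusted p = 0.000415). Afmid had 4.34, 5.60 and 6.47 CPM as lowest, median and highest value in C57BL/6, 3.75, 4.05 and 5.38 in Winnie, and 2.26, 2.87 and 4.02 in Winnie-Prolapse. All 7 prolapse libraries were below all 8 C57BL/6 libraries. Ido1, Ido2 and Afmid were the members whose groups did not overlap, as was the case for 16.0% of all genes tested (6.5% higher and 9.45% lower). The call of Afmid was close to the limit. It was lost on leaving out any of 8 single libraries (C57BL/6 replicates 3, 4, 6 and 8 and Winnie-Prolapse replicates 2, 4, 5 and 6), where the adjusted p reached 0.00175, and without a low-count filter (0.00127). Without Winnie-Prolapse replicate 6, the milk protein library, the fall was 0.73 ± 0.16 with an adjusted p of 0.00157, so that 2 members were called. Beside this fall, all 5 smooth muscle markers were called lower (summed level 6119 to 11012 CPM in C57BL/6 and 1243 to 2970 in Winnie-Prolapse), as were 2 of 7 colonocyte markers, Car1 and Slc26a3, while Epcam (0.00), Cdh1 (0.16), Vil1 (0.25) and Krt20 (0.87, adjusted p = 0.0397) and Aqp8 (-2.19, adjusted p = 0.0339) were not called (median of the 7, 0.00). Of 5 goblet cell markers 1 was called lower, Clca1 (summed level 8604 to 12350 and 2473 to 8713 CPM). None of these markers was at 0, and their part in the fall of Afmid was not tested. In these bulk samples fewer cells of a type and less RNA per cell cannot be told apart.

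The enzymes after kynurenine did not pass the test in prolapse. Kmo was at 2.60 ± 1.47 CPM (SD, n = 7) against 1.60 ± 1.42 (SD, n = 8), fitted by edgeR as 0.79 ± 0.50 on the log2 scale (SE; adjusted p = 0.194). Kynu was at 1.82 ± 0.74 against 1.01 ± 0.98 CPM, a log2 fold change of 0.94 ± 0.49 (adjusted p = 0.119). Without C57BL/6 replicate 5 these were 1.26 ± 0.45 (0.0286) and 1.37 ± 0.46 (0.0215), past the looser limit of 0.05 but not the limit of 0.001. Those were the highest values over single libraries left out. The lowest were 0.53 for Kmo without Winnie-Prolapse replicate 1 (0.402) and 0.76 for Kynu without Winnie-Prolapse replicate 7 (0.233). Haao (-0.09 ± 0.52, 95% interval -1.11 to 0.92) and Il4i1 (0.04 ± 0.37, -0.69 to 0.78) had adjusted p of 0.895 and 0.931, and the sign of each turned with single libraries.

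Qprt and Acmsd, at the fork between NAD and glutarate, gave few reads. Qprt had 4 to 14 counts per library in C57BL/6, 5 to 12 in Winnie and 1 to 13 in Winnie-Prolapse, and did not pass the filter in the prolapse comparisons. Acmsd had 0 to 3 counts in every library, with 2, 4 and 10 counts over the C57BL/6, Winnie and Winnie-Prolapse groups. All Acmsd counts were at or under the 3-count floor, so no fold is given, and a difference in Acmsd was not detectable at this depth.

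The last comparison, between both Winnie groups, concerned prolapse on top of colitis. Of 7 members tested 0 were called, as were 0.0% of 17041 genes by edgeR at the same limits (4743 at an unadjusted p under 0.05, smallest adjusted p 0.00628, and 655 calls by DESeq2). At an unadjusted p under 0.05 were 3 members, Ido1, Ido2 and Afmid, and DESeq2 and limma-voom called 0 of the 7. Ido2 was the 1 member past the looser limit of 0.05, where 6.99% of genes were called and 4.27% were higher. Here too it passed the filter through the prolapse group in which it is high, so its p and range are descriptions only. Its log2 fold change was 2.64 ± 0.68 (SE; adjusted p = 0.0309, or 0.0192 to 0.0696 on leaving out single libraries). Ido1 had 2.05 ± 0.89 (adjusted p = 0.148), from 1.52 without Winnie-Prolapse replicate 5 to 2.78 without Winnie replicate 1 (adjusted p 0.0716 to 0.311), with 3 of 7 prolapse libraries above all Winnie libraries. Afmid had -0.48 ± 0.15 (adjusted p = 0.0582), with 6 of 7 prolapse libraries below all Winnie libraries. Kmo and Kynu had 0.34 ± 0.31 and 0.35 ± 0.30, with adjusted p of 0.508 and 0.471. Haao (0.03) and Il4i1 (-0.02) lay near 0.

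**Figure D2:**
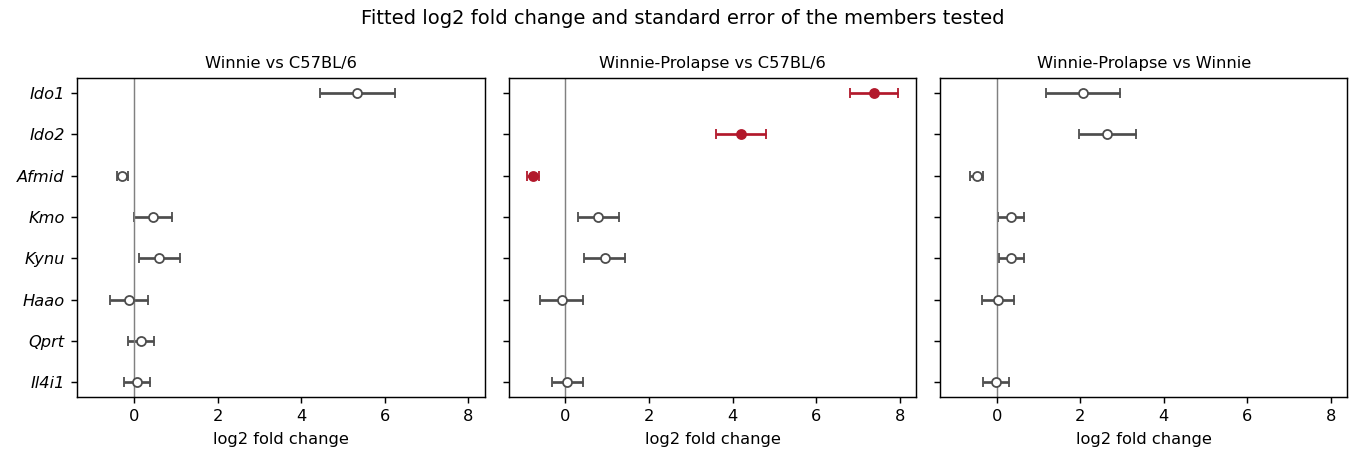
Fitted log2 fold changes (points) with their standard errors (bars) for the members that passed the low-count filter, in the 3 group comparisons; filled red points passed both limits of a call. Ido1, Ido2 and Afmid were called in Winnie-Prolapse against C57BL/6, and no member was called in the other 2 comparisons.

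Kmo, Kynu, Haao and Il4i1 differed widely between mice of the same group. In C57BL/6 the lowest and highest values were 0.145 and 4.78 CPM for Kmo, 0.181 and 2.85 for Kynu, 0.254 and 5.01 for Haao, and 1.77 and 9.80 for Il4i1. For all of these genes replicate 5 was the highest C57BL/6 library and replicate 7 the lowest. In Winnie-Prolapse, Haao ranged from 0.806 to 3.20 CPM with a median of 1.05, and Il4i1 from 2.30 to 7.55 with a median of 2.58. Replicates 1 and 7 were the highest prolapse libraries for all 4 genes. The Winnie libraries were closer together, from 1.24 to 2.72 CPM for Kmo, 0.694 to 2.31 for Kynu, 0.578 to 2.10 for Haao and 2.39 to 6.15 for Il4i1.

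These 4 genes moved together over the libraries. Their pairwise Pearson r of log2 CPM, after subtraction of each group's mean, was 0.87 to 0.93 over 22 libraries. Haao and Il4i1 had r = 0.93 (Spearman's rho 0.91, and r = 0.91 without the 2 libraries farthest from the median), with r of 0.95, 0.85 and 0.96 within C57BL/6, Winnie and Winnie-Prolapse. Kmo and Haao had r = 0.91, with 0.97, 0.54 and 0.95 within the groups. With Ido1 the 4 genes had r of -0.18 to -0.03, and with Ido2 0.02 to 0.30 (0.52 to 0.69 within C57BL/6, where Ido2 had 0 to 4 counts). Ido1 and Ido2 had r = 0.61 (rho 0.49), which was 0.36 without the 2 farthest libraries, and 0.83 and 0.88 within Winnie and Winnie-Prolapse against -0.65 in C57BL/6, where Ido2 was at the floor. Afmid had r of -0.29 and -0.37 with Ido1 and Ido2. With Kmo, Kynu, Haao and Il4i1 it had r of 0.23 to 0.47 over the 22 libraries, which was 0.01 to 0.14 within C57BL/6, -0.39 to 0.49 within Winnie and 0.81 to 0.92 within Winnie-Prolapse. All points of a pair come from the same libraries and share their depth and tissue make-up, so these are descriptions.

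**Figure D3:**
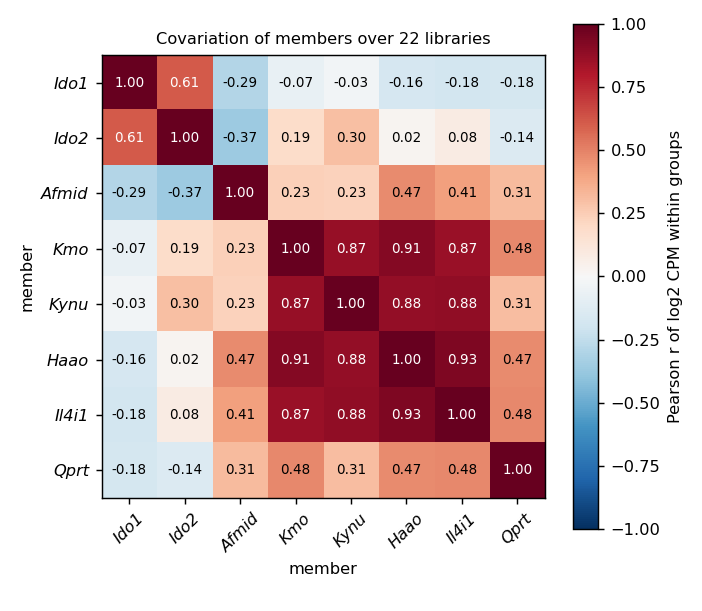
Pearson r between members of log2 CPM after subtraction of each group's mean, over 22 libraries (the 8 members that passed the low-count filter in at least 1 comparison, colour scale from -1 to 1). Kmo, Kynu, Haao and Il4i1 form a block with r of 0.87 to 0.93, while their r with Ido1 lies between -0.18 and -0.03.

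The genes most like each called member were sought among 15356 genes with a mean of at least 1 CPM. For Ido1 they were Lap3, a leucine aminopeptidase (r = 0.93), Wars, the tryptophanyl-tRNA synthetase (0.92), and Psmb8, an immunoproteasome subunit (0.92). Those values were 0.98 to 0.99 within Winnie and 0.82 to 0.95 within Winnie-Prolapse, but only -0.06 to 0.43 within C57BL/6. For Ido2 they were the adhesion molecule Icam1 (r = 0.88), the chemokine Ccl4 (0.87) and Slfn1 (0.85). For Afmid they were Trak1 (0.80), 9030622O22Rik (0.80) and Lmntd2 (0.79). The nearest genes of the members that were not called were looked up after their values were seen. The nearest were H2-DMb2 for Haao (r = 0.98), Gpr183 for Kynu (0.96), Btla for Kmo (0.96) and Gimap6 for Il4i1 (0.94). H2-DMb2 is part of the antigen-loading machinery of B cells and other presenting cells, and Gpr183 and Btla are receptors of lymphocytes.

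Of 5 B and plasma cell markers, those of B cells had a high r with the same 4 members and the plasma cell gene Jchain did not. Haao and Ms4a1, which encodes the B cell surface protein CD20, had r = 0.97 (rho 0.97) over 22 libraries and 0.99, 0.97 and 0.95 within the groups, and r = 0.95 without the 2 farthest libraries. Ms4a1 had r = 0.92 with Il4i1 and 0.89 with Kmo and with Kynu, and Cd79a, part of the B cell receptor, had 0.87 to 0.95 with the 4 members. Mzb1, of B and plasma cells, had 0.41 to 0.48, and Jchain had -0.03 to 0.03. Ms4a1 averaged 11.6 ± 11.7 CPM in the 8 C57BL/6 libraries, 10.05 ± 5.17 in the 7 of Winnie and 11.2 ± 8.8 in the 7 of Winnie-Prolapse (SD). All 5 B and plasma cell markers were detected in each group. Their sum ran from 88.0 to 393 CPM in C57BL/6, from 347 to 1419 in Winnie and from 834 to 1662 in Winnie-Prolapse, most of it from Jchain. None of the 5 was at 0, and the part of B and T cells in the levels of Kmo, Kynu, Haao and Il4i1 was not tested. The T cell marker Cd3e also moved with them, with r of 0.61 to 0.76, and the macrophage markers Cd68, Csf1r, C1qa and Adgre1 had 0.04 to 0.50.

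**Figure D4:**
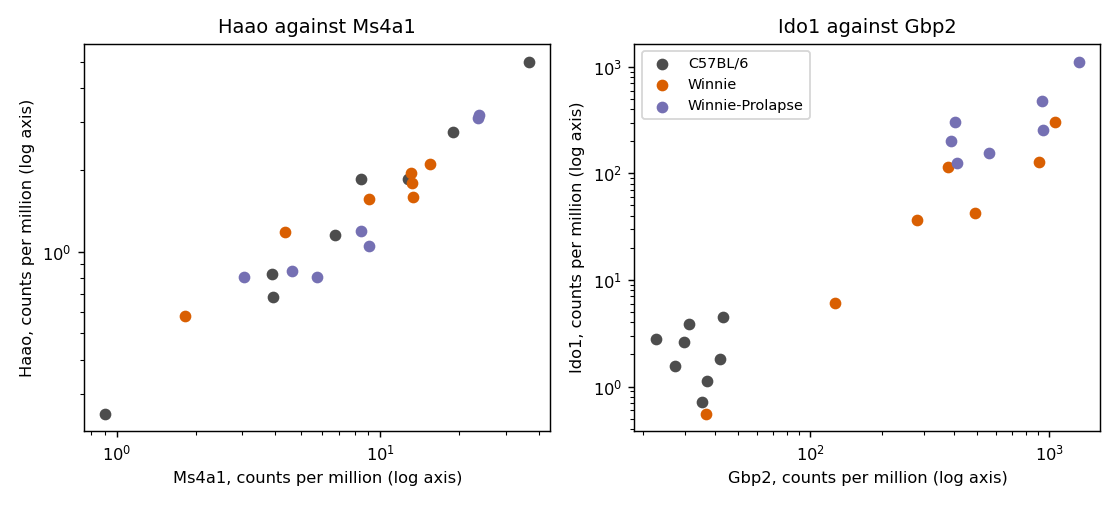
Haao against the B cell marker Ms4a1 (left) and Ido1 against the interferon-induced gene Gbp2 (right), in CPM on log axes, 1 point per library and colours for the 3 groups. Haao follows Ms4a1 in every group, and Ido1 and Gbp2 are both low in all C57BL/6 libraries and in Winnie replicate 5.

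Short stretches upstream of gene starts are shown for the 3 members with a motif match. Kmo and Il4i1 belong to the genes that moved together, and Qprt does not (r of 0.31 to 0.48 with Kmo, Kynu, Haao and Il4i1). RefSeq start sites (build GRCm38.p6) were found for 7 of the 10 members, namely Tdo2, Afmid, Kmo, Haao, Qprt, Acmsd and Il4i1. The 250 bases before each start were searched on both strands for 4 motifs: the interferon-type GAS-like TTCNNNGAA and ISRE-like TTCNNTTTC, and for lymphoid and myeloid factors the PU.1-like GAGGAAG and the octamer ATGCAAAT. Windows of this length held them at 7.02%, 7.13%, 10.6% and 1.6% of 32851 RefSeq starts. The PU.1-like letters were found in Kmo and Il4i1, the GAS-like letters in Qprt, and none of the 4 in Haao, Afmid, Tdo2 or Acmsd. Matches are printed 5′ to 3′ on the strand of the gene with 10 bases on either side and the matched letters in capitals.
Kmo: acacttatcaGAGGAAGtgagctttga
Il4i1: gactgagttaCTTCCTCctgtgatatt
Qprt: cagcctcagcTTCTGGGAAcattcgacct
The Kmo stretch is chr1:175632080-175632106 on the plus strand, with the match 103 to 97 bases before the start. The Il4i1 stretch is chr7:44836146-44836172 on the plus strand, with the match on the opposite strand 132 to 126 bases before the start. The Qprt stretch is chr7:127122030-127122058 on the minus strand, with the match 19 to 11 bases before the start. The searched windows overlap GENCODE exons over 197 of 250 bases for Kmo and for Qprt and over all 250 for Il4i1. A match is a description of letters and not a binding site.

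Genes of the interferon-gamma response, the textbook inducer of Ido1, were measured beside it. Of 11 listed genes, 11 rose in Winnie-Prolapse against C57BL/6 (edgeR, same limits as above, which 9.84% of all genes passed upwards), with a median log2 fold change of 4.20 against -0.01 over all genes. Ifng itself, which passed the filter through the prolapse group in which it is high, had at most 0.034 CPM in C57BL/6, under the 3-count floor, and 1.39 to 10.2 CPM in Winnie-Prolapse, so no fold is given. Cxcl9 rose by 7.71 ± 0.48 (SE) and Gbp2 by 4.47 ± 0.27. Another 7 (Socs1, Gbp5, Cxcl10, Cd274, Ciita, Irf1 and Irf8) rose by 1.15 to 4.40. In Winnie 0 of 10 tested were called by edgeR, while 10 were at an unadjusted p under 0.05 and 10 of 10 were higher at an adjusted p under 0.05, as 7.42% of all genes were, with a median of 2.33. Gbp2, a GTPase induced by interferons, had r = 0.89 with Ido1 over 22 libraries, 0.97 within Winnie, 0.80 within Winnie-Prolapse and -0.11 within C57BL/6. Its rho was 0.69, and its r was 0.71 without the 2 farthest libraries. Winnie replicate 5, lowest in Ido1, had 36.7 CPM of Gbp2, within the C57BL/6 range of 22.5 to 42.9. Of the macrophage and dendritic cell markers, 4 of 7 were called higher in prolapse (Csf1r, C1qa, Cd68 and Adgre1, log2 fold changes 1.09 to 1.46). Not called by edgeR were Itgax (1.45 ± 0.34, adjusted p = 0.0023), Lyz2 (1.32 ± 0.29, 0.00157) and Cd163 (-0.14 ± 0.41, 0.797). The summed level of all 7 was 77.9 to 235 CPM in C57BL/6 and 193 to 636 in Winnie-Prolapse, and none was at 0. Lyz2 was the most abundant of them, with a mean of 139 CPM over all libraries. The 4 called had r of 0.42 to 0.50 with Ido1 over 22 libraries, which was -0.04 to 0.27 without the 2 farthest, and the others were not compared with Ido1. Within groups the r of the 4 called was 0.53 to 0.80 in Winnie, 0.16 to 0.73 in Winnie-Prolapse and -0.16 to 0.32 in C57BL/6. T cell markers had 4 of 5 called higher (summed level 3.59 to 14.7 CPM in C57BL/6 and 13.5 to 35.8 in Winnie-Prolapse) and endothelial markers 1 of 4, Cdh5 (41.2 to 62.7 and 61.6 to 170.1 CPM). The 4 neutrophil markers summed to 0.362 to 2.82 CPM in C57BL/6, where Cxcr2 had a median of 0, and to 60.9 to 1081 CPM in Winnie-Prolapse, and 3 of 3 tested were called higher. Of these, S100a9 passed the filter only in the comparisons that hold the prolapse group, in which it is high. The part of any of these cell types in the rise of Ido1 was not tested.

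Of 5 listed genes that make NAD from quinolinate or nicotinic acid, 2 were called lower in Winnie-Prolapse against C57BL/6, as were 8.47% of all genes. At the limit of 0.05, 4 were lower, where 17.7% of all genes were (median log2 fold change -0.85 against -0.01 over all genes). Naprt, which takes nicotinic acid into the same route, fell by 1.28 ± 0.21 (SE; edgeR, adjusted p = 0.000123). Nadsyn1, the NAD synthetase that finishes it, fell by 0.71 ± 0.14 (adjusted p = 0.000531). Nmnat2 had -0.86 ± 0.23 (0.00552) and Nmnat3 -0.85 ± 0.23 (0.00623), past the limit of 0.05 alone, and Nmnat1 (-0.48 ± 0.14) was below the fold limit. The smooth muscle, colonocyte and goblet cell markers given for Afmid stand beside these values too, and their part was not tested. In Winnie 0 of 5 were called by edgeR (3 at an unadjusted p under 0.05), with Naprt at -0.50 ± 0.20 (adjusted p = 0.0715).

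The list of the glutarate branch after Acmsd had 0 of 5 tested genes called in prolapse by edgeR (4 at an unadjusted p under 0.05) and 3 lower at an adjusted p under 0.05 with at least 1.5-fold (median -0.61). Gcdh, the glutaryl-CoA dehydrogenase, had -0.62 ± 0.13 (adjusted p = 0.00123) and Hadh -0.61 ± 0.15 (0.00358). Echs1 (-0.30 ± 0.10) and Acat1 (-0.05 ± 0.08) were below the fold limit. Aldh8a1, the enzyme next to Acmsd, had at most 0.131 CPM. The aminotransferases that turn kynurenine into kynurenic acid gave 0 of 3 calls by edgeR (1 at an unadjusted p under 0.05, Got2). Kyat1 was abundant but variable, at 125 ± 84 CPM in the 8 C57BL/6 libraries and 54.3 ± 42.9 in the 7 of Winnie-Prolapse (SD) (log2 fold change -1.09 ± 0.54, SE; edgeR, adjusted p = 0.102). Got2 had 0.30 ± 0.09, below the fold limit, Kyat3 had 0.11 ± 0.15, and Aadat had at most 0.055 CPM.

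Of 5 genes listed for other uses of tryptophan and its products, 1 was called higher and 1 lower in prolapse, beside 9.84% and 8.47% of all genes. Wars, which charges tRNA with tryptophan and is induced by interferon-gamma, rose by 2.49 ± 0.14 (SE; edgeR, adjusted p = 7.51e-09), from 100.4 ± 8.0 CPM (SD, n = 8) to 538 ± 169 (SD, n = 7). Ddc, the decarboxylase of serotonin synthesis, fell by 1.20 ± 0.20 (adjusted p = 0.000144). Tph1, the gut serotonin-forming hydroxylase, had -0.56 ± 0.25 (0.0727) and Maoa, which degrades serotonin, -0.97 ± 0.27 (0.00712). Of 6 receptors and targets of kynurenine signalling 5 were tested and 1 was called. Tiparp, a target of the aryl hydrocarbon receptor, rose by 0.68 ± 0.14 (adjusted p = 0.000774). Cyp1b1, a further target of that receptor, had 2.51 ± 0.74 (adjusted p = 0.0103), past the limit of 0.05 alone. It passed the filter in this comparison alone, through a prolapse group that ranged from 0.03 to 6.48 CPM. Ahr itself (-0.07 ± 0.09), the kynurenic acid receptor Gpr35 (-0.13 ± 0.13) and the repressor Ahrr (0.14 ± 0.32) had adjusted p of 0.401 to 0.73. In Winnie, Ahrr had 0.68 ± 0.20 (edgeR, adjusted p = 0.023).

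The effect of group on the members was compared between males and females by the interaction term of an edgeR fit over all genes. For 0 of the 7 members tested in each comparison was the interaction past an adjusted p of 0.05, against 47 of all genes in Winnie against C57BL/6 and 0 in the other comparisons. At an unadjusted p under 0.05 were Kynu in Winnie against C57BL/6 (-1.99 ± 0.83, females minus males, adjusted p = 0.224), Ido1 in Winnie-Prolapse against C57BL/6 (2.68 ± 0.70, adjusted p = 0.9995) and Ido2 in Winnie-Prolapse against Winnie (3.48 ± 1.16, adjusted p = 0.315). Ido1 means in Winnie-Prolapse were 562 ± 485 CPM in females (SD, n = 3) and 240 ± 162 in males (SD, n = 4). In Winnie they were 42.5 ± 58.5 in females (SD, n = 4) and 153 ± 134 in males (SD, n = 3). Single libraries weigh heavily on these means. Winnie-Prolapse females were at 1122 CPM in replicate 5 and at 306 and 258 CPM in the others. Winnie males were at 302 CPM in replicate 1 and at 115 and 42.8 CPM in the others. Among Winnie females replicate 7 was at 127 CPM and the next at 36.4 CPM. For Ido1 the sexes overlapped in both groups.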

How the data were processed

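RNA of 22 distal colon samples, each from its own mouse, was sequenced as stranded poly(A) libraries in paired ends. The authors ran the RNAsik pipeline on GRCm38 and deposited whole-number read counts per gene from featureCounts, with no normalization; the submitters' processing notes also name STAR and limma. The annotation release, the strand setting and the treatment of multi-mapping reads were not given in the sources used here. CPM were computed from the deposited counts and library totals. Groups came from the sample labels, replicate numbers pair no animals, and no batch is labelled. Each comparison was fitted on its 2 groups with edgeR 4.0.16 in R 4.3.3 (quasi-likelihood F test, TMM factors, filterByExpr, Benjamini-Hochberg adjustment over all genes tested), with calls at an adjusted p under 0.001 and at least 1.5-fold, as in the study's methods. SE was the size of the log2 fold change divided by the square root of F, and 95% intervals were built from it. Likeness used log2 CPM with a prior count of 2. The procedure was tested on simulated data. Alternatives were library totals without TMM, DESeq2 1.42.0, limma-voom (limma 3.58.1), 2 other low-count filters, 1 fit over all 3 groups, a term for sex, other limits and each library left out. Genes named were all members, the 4 most abundant and the called genes of each list, and the 3 genes most like each called member. Marker lists held 12 cell types. Some genes of the lists are not reported here singly. Members and lists were chosen with earlier results of these data known. All 108 identifiers looked up matched GENCODE M21. Chi-square per degree of freedom between libraries of a group was at least 28.8, so none was a duplicate. Depth was 24.8 to 36.3 M counts.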

Additional observations from a re-analysis of the deposited data

Results flagged for a closer look

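In 30 sets of values, the 10 members in each of the 3 groups, 5 held a highest library that stood apart from the others of its group by the gap test of Dixon. Chance gives about 1 in 20 there for values with a normal distribution. That was not checked for these CPM, and some sets rest on a few counts, so the rate by chance is not known here. Ido1 was at 302 CPM in Winnie replicate 1, and the Winnie mean of 89.9 ± 106 CPM (SD, n = 7) fell to 54.6 ± 54.0 (SD, n = 6) without it. Ido1 was at 1122 CPM in Winnie-Prolapse replicate 5, 2.35 times the next library (478 CPM), and Ido2 had its highest value in the same library. Tdo2 was at 1.05 CPM in C57BL/6 replicate 7, which rests on 29 counts. Tdo2 was at 0.165 CPM in Winnie-Prolapse replicate 4, which rests on 5 counts. Kmo was at 4.78 CPM in C57BL/6 replicate 5, the library of that group with the most Ms4a1.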

How the results depend on the processing

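In Winnie-Prolapse against C57BL/6, Ido1 was called under all alternatives run, and Ido2 under all but the filter of at least 10 counts in every library, which removed it. Ido2 passed the filter through the prolapse group, in which it is high, so its calls carry no weight as a sign of stability. Afmid kept its direction but not its call without a low-count filter (-0.76, adjusted p = 0.00127). Members called there numbered 2 or 3. In Winnie against C57BL/6, 1 member (Ido1) was called by DESeq2, by the fit of all 3 groups and at an adjusted p under 0.05, and 0 to 1 on leaving out single libraries (1 without Winnie replicate 5). Between both Winnie groups 1 member (Ido2, with the same limit from its filter) passed at an adjusted p under 0.05. The counts of all genes called moved more. In Winnie against C57BL/6 they were 8 by library totals, 1235 by DESeq2, 0 by limma-voom, 68 without a filter, 0 at 10 counts in every library, 199 in the fit of all 3 groups, 2757 at an adjusted p under 0.05, and 0 to 677 without single libraries, the highest without Winnie replicate 5. In Winnie-Prolapse against C57BL/6 they were 5023 by DESeq2 and 5981 at the limit of 0.05. Between both Winnie groups they were 655 by DESeq2, 42 in the fit of all 3 groups, 1191 at an adjusted p under 0.05, and 0 to 1 without single libraries. The cause of these shifts was not tested. Haao and Il4i1, whose log2 fold changes lay near 0, turned sign. Haao had 0.24, 0.10 and -0.13 by limma-voom for Winnie and Winnie-Prolapse against C57BL/6 and for Winnie-Prolapse against Winnie, and 0.0618 with a term for sex in the second. Il4i1 had -0.0211 and -0.0385 by library totals in the comparisons of Winnie and of Winnie-Prolapse with C57BL/6. Without single libraries, in the same order of comparisons, Haao ranged from -0.29 to 0.29, from -0.41 to 0.33 and from -0.25 to 0.16, and Il4i1 from -0.0525 to 0.35, from -0.20 to 0.34 and from -0.23 to 0.10. With the longest transcript as length, levels per kilobase were 2.36, 1.83 and 1.30 for Afmid, 0.363, 0.512 and 0.655 for Kynu and 1.86, 1.83 and 1.80 for Il4i1 in C57BL/6, Winnie and Winnie-Prolapse, and 0.560, 0.492 and 0.151 in Winnie for Kmo, Haao and Qprt. Depth limits Acmsd, Tdo2 and Qprt, which had at most 29 counts in any library. No paired analysis was possible because each library came from its own mouse and replicate numbers pair no animals across groups.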

Other observations

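In C57BL/6 colon, Ido1 had 2.63 to 4.52 CPM in the 4 males and 0.708 to 1.82 CPM in the 4 females. How many of all genes had the sexes apart in this way was not counted. The log2 fold change of males against females was 1.39 ± 0.32 (SE; edgeR quasi-likelihood test), with an unadjusted p of 0.00163 and an adjusted p of 0.789 over 17270 genes, of which 7 were past an adjusted p of 0.05. Kynu lay the other way, at 0.455 ± 0.103 CPM in males and 1.56 ± 1.19 in females (SD, n = 4 each), a log2 fold change of -1.76 ± 0.65 (edgeR, adjusted p = 0.812). Neither passed the correction, and both were chosen after their values were seen.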
